A study of Mus musculus with 4 samples.

Results

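The Hox genes of PSC-derived salivary gland (SG) placodes and of embryonic submandibular glands (SMGs) are described here by cluster and by paralogue group. The members are all rows of the expression table whose symbol is Hox, followed by the letter a, b, c or d and a number, which gave 40 features with 39 symbols out of 24771 listed features. Hoxd4 was listed as 2 features. The family was chosen on the difference between these same samples, so its levels are given as a description and no p-value is attached to them.

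RNA-seq was performed on 2 samples of PSC-derived SG placodes and on 2 samples of SMGs from E12.5 mouse embryos. For the placodes, the mouse embryonic stem cell line 129w2 was seeded at 3000 cells per well and given 2% Matrigel from day 1, BMP4 at 2 ng/ml on day 3, RA (retinoic acid) at 1 μM with bFGF at 25 ng/ml on day 4 and then, beginning on day 6, FGF10 at 200 ng/ml, and RNA was taken on day 10. All placodes came from this single line. The mouse strain and the dissection of the SMGs are not given in the sources used here, so the shares of epithelium and mesenchyme in that tissue are unknown. The expression level is FPKM, the fragments mapped to a gene per kilobase of its transcript and scaled to the mapped fragments of the sample, so levels of different genes are compared per length. The depth of the samples is unknown, since the files hold no counts. The labels do not say whether the samples of a group came from separate cultures or litters, so p-values measure only the spread between these samples.

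Hox genes encode homeodomain transcription factors that give cells their position along the head to tail axis. In the mouse they lie in the clusters Hoxa, Hoxb, Hoxc and Hoxd, all genes of a cluster point the same way, and genes at the same place in different clusters form a paralogue group numbered from 1 to 13. Genes at the group 1 end are switched on first and reach farthest towards the head, genes at the group 13 end are switched on last and stay near the tail, and RA switches on genes from the group 1 end. The jaw, from which the SMG buds, develops from the mandibular arch, whose neural crest cells lack Hox expression, whereas the second pharyngeal arch behind it expresses group 2 genes.

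In the placodes, 23 of 40 Hox features were detected, that is, they had an FPKM of at least 1 in both samples, against 2 in the SMGs. Of all listed features, 50.1% were detected in the placodes and 50.5% in the SMGs. The summed FPKM of the family was 1579 and 1589 in the placode samples, which was 0.432% and 0.439% of all FPKM, and 5.82 and 5.17 in the SMG samples. In 29 features both placode samples were above both SMG samples, and in 0 features both were below, where the background over all listed features for the first of these was 29.6%. No background was computed for features with both placode samples below both SMG samples. Because the family was selected on this contrast, nothing is read from that share or from either count. In bulk RNA, fewer cells that express a gene and less RNA per cell cannot be told apart.

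**Figure D1:**
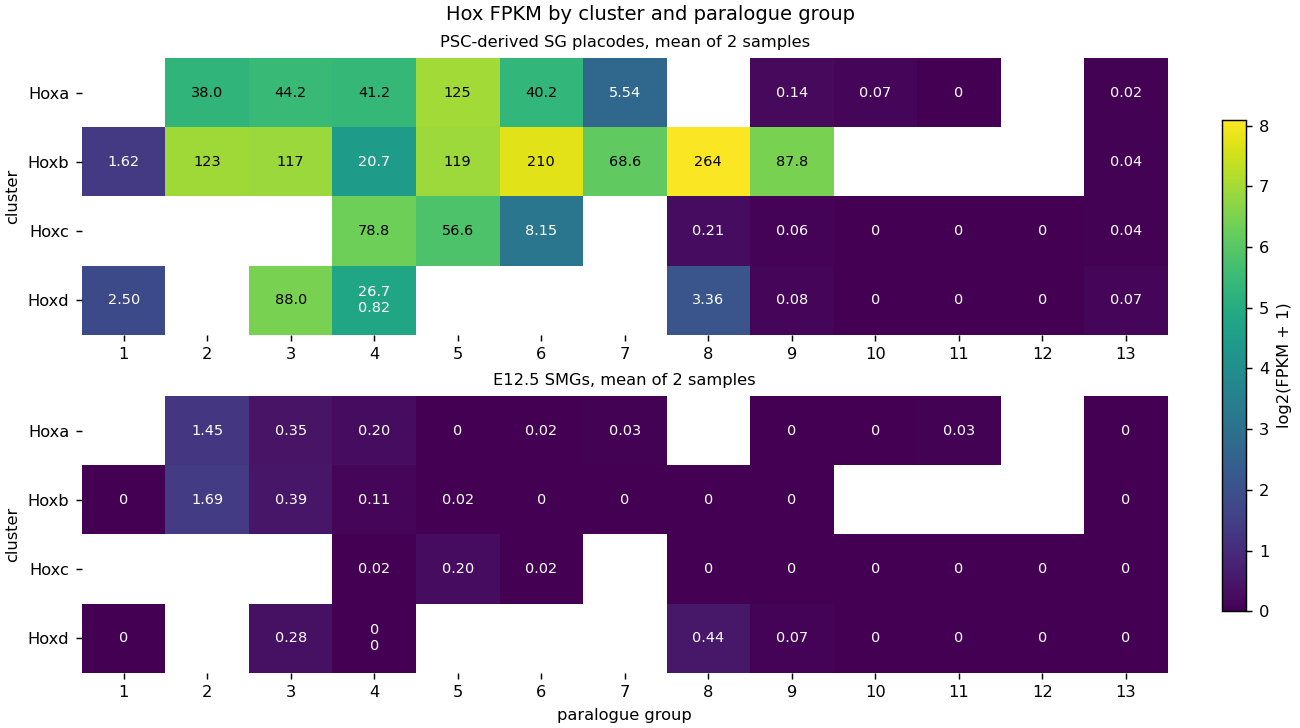
Mean FPKM of each Hox gene (number in the cell) in the PSC-derived SG placodes (top) and the E12.5 SMGs (bottom), with clusters as rows, paralogue groups as columns and colour showing log2(FPKM + 1); white places have no listed gene or one not reported here, and the Hoxd4 place holds both features and the colour of the higher. Every place shown in groups 1 to 7 has at least 1 FPKM in the placodes, only Hoxb continues at a high level through group 9, and the SMGs reach 1 FPKM at Hoxa2 and Hoxb2 alone.

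Within each cluster the detected members formed 1 unbroken run from the end that faces group 1. In groups 1 to 7, 20 of 21 features were detected in the placodes, the exception being the lower of the 2 Hoxd4 features. In groups 8 and 9, 3 of 7 were detected, namely Hoxb8, Hoxd8 and Hoxb9. In groups 10 to 13, which pattern the lumbar to tail region and the distal limb, 0 of 12 were detected, the highest FPKM there being 0.0938 in a placode sample and 0.0519 in an SMG sample. Of the 17 undetected features, 16 had at most 0.344 FPKM in a placode sample, and the low Hoxd4 feature had 0.873 and 0.766, just under the detection level. Hoxb1, the lowest detected member, had 1.86 and 1.38.

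The place where detection stopped differed between the clusters. In Hoxa (chromosome 6, minus strand), Hoxa7 was the last detected member, at 5.65 and 5.43 FPKM, and Hoxa9 the first undetected, at 0.0958 and 0.193. In Hoxb (chr11:96194316-96368256, plus strand), Hoxb9 was the last detected, at 91.8 and 83.7 FPKM, and Hoxb13, the next gene of that cluster, was at 0 and 0.0820. In Hoxc (chr15:102921103-103036852, plus strand), Hoxc6 had 8.71 and 7.59 FPKM and Hoxc8 had 0.344 and 0.0702. In Hoxd (chr2:74668310-74765142, plus strand), Hoxd8 had 3.15 and 3.57 FPKM and Hoxd9 had 0.0864 and 0.0831. At each of these places the ranges of the placode samples on the near and the far side did not overlap. The step was from a high level to about 0 in Hoxb, whereas in Hoxa, Hoxc and Hoxd the last detected member was already among the lowest of its cluster.

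The promoters at the Hoxa boundary are shown as reference sequence, because the values change over a short distance in the genome there. That of Hoxb8 is shown because this gene is the most abundant member. The windows run from 250 bases before to 50 bases after the RefSeq start, in GRCm38.p6. Capitals mark matches, on either strand, to TATAAA, the TATA box, to TGATNNAT, a site of Hox and Pbx proteins bound together, and to TTTATG, which contains the core of sites preferred by posterior Hox and Cdx proteins. Hoxa7 lies on the detected and Hoxa9 on the undetected side.
Hoxa7 promoter, chr6:52218524-52218823, minus strand: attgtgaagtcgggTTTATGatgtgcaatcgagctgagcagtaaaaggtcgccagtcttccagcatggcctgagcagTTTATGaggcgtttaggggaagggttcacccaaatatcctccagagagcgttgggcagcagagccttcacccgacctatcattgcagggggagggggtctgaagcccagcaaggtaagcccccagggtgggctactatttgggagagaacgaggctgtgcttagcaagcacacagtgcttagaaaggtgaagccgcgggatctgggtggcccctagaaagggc
Hoxa9 promoter, chr6:52227321-52227620, minus strand: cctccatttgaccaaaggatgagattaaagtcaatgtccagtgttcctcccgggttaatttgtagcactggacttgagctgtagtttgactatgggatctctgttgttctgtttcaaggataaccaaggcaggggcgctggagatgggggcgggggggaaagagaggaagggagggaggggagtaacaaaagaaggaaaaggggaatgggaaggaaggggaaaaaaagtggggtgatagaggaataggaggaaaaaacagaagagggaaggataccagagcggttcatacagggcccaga
Hoxb8 promoter, chr11:96281655-96281954, plus strand: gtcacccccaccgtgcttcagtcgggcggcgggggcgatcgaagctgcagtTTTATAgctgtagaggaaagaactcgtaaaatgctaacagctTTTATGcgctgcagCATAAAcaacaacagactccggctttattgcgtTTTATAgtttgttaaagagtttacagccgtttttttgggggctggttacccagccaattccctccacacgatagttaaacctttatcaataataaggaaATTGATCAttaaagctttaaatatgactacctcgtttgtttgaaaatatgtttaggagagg

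Hoxb8 held 2 matches to TATAAA, 1 to TGATNNAT and 2 to TTTATG in its window. Hoxa7 held 2 matches to TTTATG, and Hoxa9 held none of these motifs. RefSeq gave 24 windows for 22 of the 39 symbols, and of these 16.7% held TATAAA, 16.7% TGATNNAT and 20.8% TTTATG, against 13.6%, 8.85% and 11.9% of all 32851 promoter windows of that length. A direct repeat of AGGTCA with a spacer of 5 bases, the classical binding site of RA receptors, was in 0 Hox windows and in 0.00913% of all windows. The median number of CpG dinucleotides per window was 14.5 for the Hox windows and 7 for all windows. It was 13 in the 13 windows of detected members and 20 in the 11 windows of undetected members, and the ranges, 4 to 29 and 4 to 45, overlapped. These matches are a description of letters in the windows and not of binding.

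The Hoxb cluster held most of the Hox RNA of the placodes. Its share of the summed Hox FPKM was 64.0% and 63.7% in the 2 samples, compared with 19.1% and 19.7% for Hoxa, 9.27% and 8.90% for Hoxc and 7.59% and 7.76% for Hoxd. The clusters kept this order in both samples, and Hoxc and Hoxd were separated by more than their spread (9.09 ± 0.263% and 7.68 ± 0.118%, SD, n = 2). Exons shared with other annotated genes bear on these shares. Over the members with coordinates that share no exon, Hoxb held 71.6% and Hoxd held 0.660%, since the level of Hoxd rests on Hoxd3 and Hoxd4. The higher Hoxd4 feature was left out there because it has no coordinates, so whether it shares exons is unknown.

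**Figure D2:**
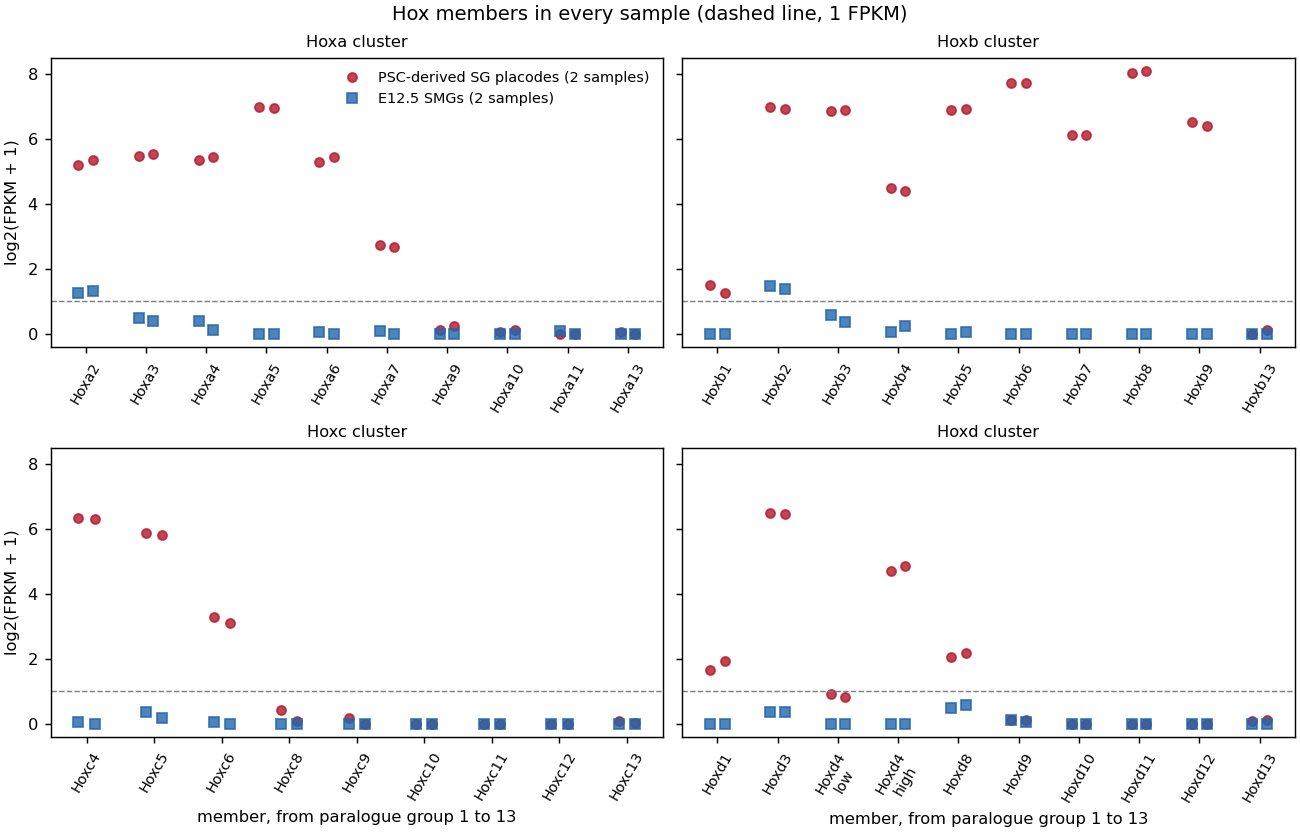
Level of each Hox feature reported here in each sample as log2(FPKM + 1), in 4 panels by cluster, with members ordered from paralogue group 1 to 13; red circles are the 2 placode samples, blue squares the 2 SMG samples, and the dashed line is 1 FPKM, the detection level. The 2 placode samples lie close together at each detected member, and Hoxb stays high up to Hoxb9 while the other clusters fall off earlier.

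Replicates of the placodes were close for the detected members, with a median absolute difference of 0.07 and a largest of 0.27 on the log2(FPKM + 1) scale. The largest difference was that of Hoxd1. Levels were therefore ordered within each cluster by their ranges over the 2 samples.

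In Hoxb, 9 of 10 members were detected, and their means spanned 163-fold. Hoxb8 was the most abundant Hox gene, at 258 and 270 FPKM, which ranked it 159th and 145th among all listed features. It alone held 16.3% and 17.0% of the summed Hox FPKM, and together with Hoxb6, at 212 and 208, it held 29.7% and 30.1%. Both are trunk genes, active in the spinal cord and the thoracic mesoderm of the embryo. Hoxb2 (126 and 119), Hoxb5 (118 and 121) and Hoxb3 (115 and 119) followed, and the range of Hoxb5 overlapped those of both others. Of the exonic bases of Hoxb3, 52.9% are shared with Hoxb3os, and the counting of shared reads is not described in the sources used here. Hoxb9, which acts in the thoracic region, had 91.8 and 83.7, Hoxb7 had 68.2 and 69.0, and Hoxb4 had 21.4 and 20.0, without overlap between neighbours in this order. Hoxb1, which marks rhombomere 4 of the hindbrain, was the lowest. In the SMGs, Hoxb6, Hoxb7, Hoxb8, Hoxb9, Hoxb1 and Hoxb13 were listed at 0 in both samples.

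In Hoxa, 7 of 11 members were detected. Hoxa5, which acts in the neck, lung and thoracic skeleton, led with 125 and 124 FPKM, whereas both SMG samples listed it at 0. Hoxa3, needed for the thymus and parathyroid, had 43.3 and 45.1. Hoxa4 had 40.2 and 42.2, and Hoxa6 had 38.0 and 42.5. Hoxa2, the selector gene of the second pharyngeal arch, had 35.9 and 40.1. The range of Hoxa6 overlapped those of Hoxa4 and Hoxa2, so these neighbours did not differ beyond their spread. Hoxa7 was the lowest detected member. Hoxa10 was at 0.0462 and 0.0938, Hoxa13 at 0.0468 and 0, and Hoxa11 at 0 in both placode samples and at 0.0519 and 0 in the SMG samples.

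In Hoxc, 3 of 9 members were detected, and the levels fell along the cluster from Hoxc4 (79.2 and 78.4 FPKM) to Hoxc5 (57.9 and 55.3) and Hoxc6 (8.71 and 7.59), without overlap. Hoxc6 acts in the thoracic region and the mammary gland. Hoxc9 was at 0.121 and 0, Hoxc13 at 0.0625 and 0.0245, and Hoxc10, Hoxc11 and Hoxc12 at 0 in all samples.

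In Hoxd, 4 of 10 features were detected. Hoxd3 had 88.3 and 87.7 FPKM, but 62.8% of its exonic bases are shared with Hoxd4, Gm28230 and the noncoding genes Haglr and Hoxd3os1, and the counting of shared reads is not described in the sources used here. Hoxd4 was split over the feature ENSMUSG00000115956, at 25.2 and 28.3 FPKM, and the feature ENSMUSG00000101174, at 0.873 and 0.766. Both were listed at 0 in the SMGs. The former is missing from GENCODE M21 and has no coordinates here, and the latter shares 52.3% of its exonic bases with other genes. Hoxd1, the lowest detected member of this cluster, had 2.17 and 2.83. Hoxd10, Hoxd11 and Hoxd12 were at 0 in all samples, and Hoxd13 was at 0.0510 and 0.0851 in the placodes.

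Members of 1 paralogue group were not equal in the placodes. The highest detected member exceeded the lowest by 2.20-fold in group 5 (Hoxa5 over Hoxc5), by 2.64-fold in group 3 (Hoxb3 over Hoxa3) and by 3.23-fold in group 2. Hoxb3 and Hoxa3 share 52.9% and 27.1% of their exonic bases with other genes. The gap was wider towards the trunk groups, with 25.8-fold in group 6 (Hoxb6 over Hoxc6), 12.4-fold in group 7 (Hoxb7 over Hoxa7) and 78.5-fold in group 8 (Hoxb8 over Hoxd8). It was 3.80-fold in group 4. A Hoxb gene was the highest member in groups 2, 3, 6, 7, 8 and 9. In groups 8 and 9, which pattern the trunk, Hoxb8 and Hoxb9 stood against Hoxc8, Hoxa9, Hoxc9 and Hoxd9, which had at most 0.344 FPKM in any sample.

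**Figure D3:**
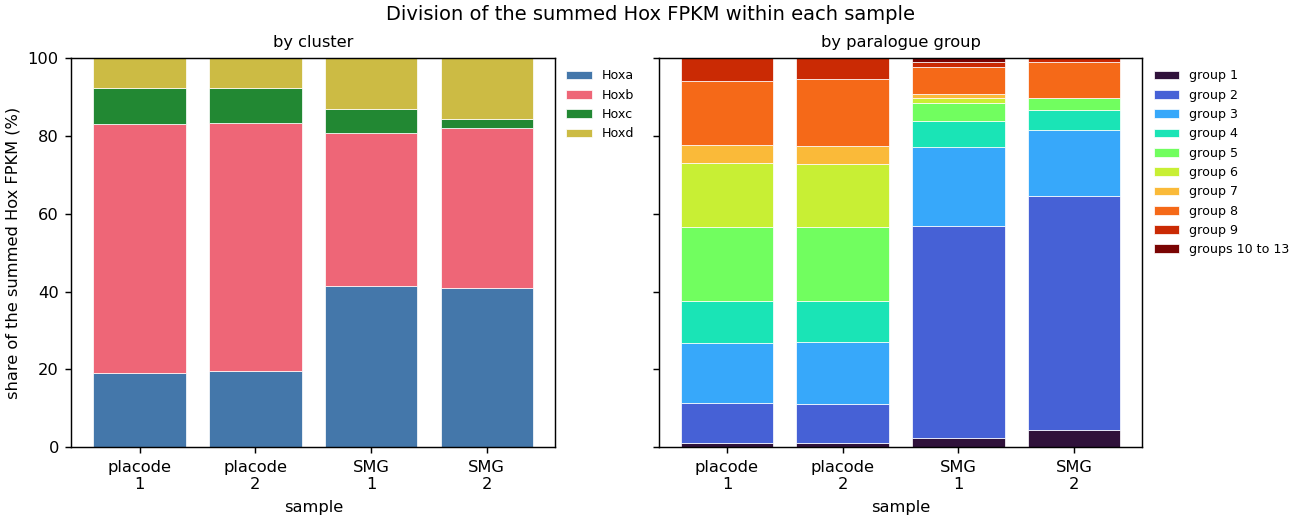
Share of the summed Hox FPKM of each sample by cluster (left) and by paralogue group (right), in percent, for 2 placode and 2 SMG samples. In the placodes Hoxb holds 63.9% on average and the share is spread over groups 2 to 9, whereas in the SMGs group 2 holds 57.3% of a sum that is far smaller.

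Of the summed Hox FPKM of the placodes, groups 1 to 3 held 26.9% in each sample and groups 4 to 9 held 73.1% and 73.0%. Group 5 had the largest share, 19.1% and 18.9%, followed by group 8 with 16.5% and 17.2% and group 6 with 16.4% and 16.3%. The ranges of groups 8 and 6 did not overlap, but they lay within 1 percentage point of each other. Groups 10 to 13 held 0.0131% and 0.0180%.

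The little Hox RNA of the SMGs was distributed differently. Groups 1 to 3 held 77.1% and 81.6% of it and groups 4 to 9 held 22.1% and 18.4%, so the samples of the groups did not overlap. Hoxb2 had 1.76 and 1.62 FPKM and Hoxa2 had 1.41 and 1.49, and together they made up 54.5% and 60.1% of the SMG sum. In the placodes the mean levels of Hoxb2 and Hoxa2 were 72.5-fold and 26.2-fold higher. Part of the exons of both are shared with other genes, Hoxb3os for Hoxb2 (27.3% of the exonic bases) and Gm28308 for Hoxa2 (15.0%). After them came Hoxd8, with 0.393 and 0.479, Hoxb3, with 0.491 and 0.297, and Hoxa3, with 0.396 and 0.313, whose ranges overlapped. The 11 members above 0 in both SMG samples included Hoxa2 to Hoxa4, Hoxb2 to Hoxb4, Hoxc5, Hoxd3, Hoxd8 and Hoxd9. Of the other members, 6 were above 0 in 1 SMG sample and 23 were listed at 0 in both.

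Hoxd8 had the smallest difference of the tested members on the log2(FPKM + 1) scale, and Hoxd9 was near 0 in both groups. The mean of Hoxd8 was 7.71-fold higher in the placodes, and its ranges did not overlap. Hoxd9 had 0.0864 and 0.0831 FPKM in the placodes and 0.0860 and 0.0490 in the SMGs, where the ranges overlapped. In the test over all features, 22 members reached the minimum mean FPKM of 1, and all 22 of these were called higher in the placodes (limma, adjusted p below 0.05), where the background was 35.7% of the 13193 tested features called higher and 40.4% called lower. Except for Hoxb2 and Hoxa2, these 22 passed the minimum only through their placode values. The whole family was selected on this contrast, so the count carries no weight as evidence.

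The clusters also encode miRNAs, which repress Hox mRNAs and are shown because the most abundant member, Hoxb8, has a nearly complementary site for one of them. Mature miRNAs were not analysed here. The sequences are from RefSeq (GRCm38.p6), and capitals mark the seed, bases 2 to 8. Those of miR-10a, between Hoxb5 and Hoxb4, and miR-10b, inside Hoxd3 and Hoxd4, share 1 seed. Those of miR-196a, between Hoxb13 and Hoxb9 and between Hoxc10 and Hoxc9 within the annotated span of Hoxc5, and miR-196b, inside Hoxa9, share another.
mmu-miR-10a-5p, chr11:96317186-96317208: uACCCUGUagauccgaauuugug
mmu-miR-10b-5p, chr2:74726074-74726096: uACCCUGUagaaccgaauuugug
mmu-miR-196a-5p, chr11:96265187-96265208 and chr15:102973365-102973386: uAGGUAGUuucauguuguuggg
mmu-miR-196b-5p, chr6:52230129-52230150: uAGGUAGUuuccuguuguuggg

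In the transcripts of GENCODE M21 (GRCm38), the bases after the stop codon of 39 Hox genes were searched for exact matches to these seeds. The miR-196 seed matched in 9 genes, of which 7 were detected in the placodes (among them Hoxa4, Hoxa5, Hoxa7, Hoxb1, Hoxb6 and Hoxb7) and 2 were not (Hoxa9 and Hoxc8). The miR-10 seed matched in 4 genes, among them Hoxa3, Hoxb3 and Hoxd1, all detected. Hoxb8 had no exact seed match, but 1 window in it paired with miR-196a over its whole length, at 21 of 22 bases as standard pairs and at 1 base, in the seed, as a G:U wobble. These bases are the 3′ UTR. The sites of Hoxb8, of Hoxb7 and of the undetected Hoxa9 are given as the bases opposite miR-196a, with capitals opposite the seed.
Hoxb8, chr11:96284888-96284909: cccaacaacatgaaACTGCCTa
Hoxb7, chr11:96289784-96289805: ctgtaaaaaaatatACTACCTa
Hoxa9, chr6:52223900-52223921: caaaaggaaagaaaACTACCTt

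Genes next to the clusters were compared with limma, a linear model in which genes share information on their variance, on log2(FPKM + 1). The 3 nearest listed protein-coding genes on each side of each cluster were taken, 24 in all, of which 21 passed the minimum level of the test. Of these, 11 were higher and 5 lower in the placodes, beside a background of 35.7% higher and 40.4% lower. Among the nearest gene on each side, 5 of 6 tested were higher and 1 was lower, and among the farther ones 6 of 15 were higher and 4 lower. Evx1 and Evx2 are among these 5 and were at 0 in both SMG samples. They passed the minimum only through their placode values, so they could only be called higher and their calls carry no weight as evidence. The count of nearest genes is therefore a description.

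On the group 13 side, Evx1 and Evx2, homeobox genes of the caudal embryo and of spinal interneurons, lie directly beside Hoxa and Hoxd, 52.6 kb and 8.75 kb beyond the outermost Hox gene. Evx1 had 8.65 and 9.33 FPKM in the placodes and Evx2 had 3.76 and 4.78, and both were listed at 0 in the SMGs (adjusted p = 1.25e-06 and 1.28e-05, limma). Both were thus detected although the Hox genes next to them, Hoxa13 and Hoxd13, were not. Lnpk, next after Evx2, had 13.96 and 14.91 against 7.84 and 7.68, a log2 difference of 0.82 (SE 0.07, adjusted p = 9.19e-05), and Tax1bp1 had 49.97 and 50.63 against 43.8 and 42.7 (0.21, adjusted p = 0.00602). Beside Hoxc, Calcoco1 (18.2 and 17.6 against 32.0 and 32.6) and the transcription factor gene Atf7 (4.71 and 4.65 against 13.38 and 11.98) were lower in the placodes, with log2 differences of -0.82 and -1.27 (adjusted p = 2.36e-05 and 2.90e-05). Atp5g3, a subunit gene of ATP synthase, and Hibadh were lower by less (-0.20 and -0.18, adjusted p = 0.0108 and 0.0452), and both lost the call when samples were rescaled to an equal sum (adjusted p = 0.0519 and 0.115) and without placode sample 1 (adjusted p = 0.0795 and 0.103). Hibadh also lost it without placode sample 2 or SMG sample 1 (adjusted p = 0.213 and 0.187), and its adjusted p was 0.0502 to 0.127 with a pseudocount of 0.001, with no minimum, with median-ratio scaling or with no trend in limma's variance prior. Atp5g2 (130 and 122 against 121 and 129) and Atp5g1 (34.4 and 42.3 against 47.3 and 44.3) did not pass the test (adjusted p = 0.851 and 0.0538), and without placode sample 2 Atp5g1 was called lower (-0.40, adjusted p = 0.0180). Ttll6 was at 0 and 0.0145 against 0.0608 and 0, and Calcoco2 was at 0 in all samples.

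**Figure D4:**
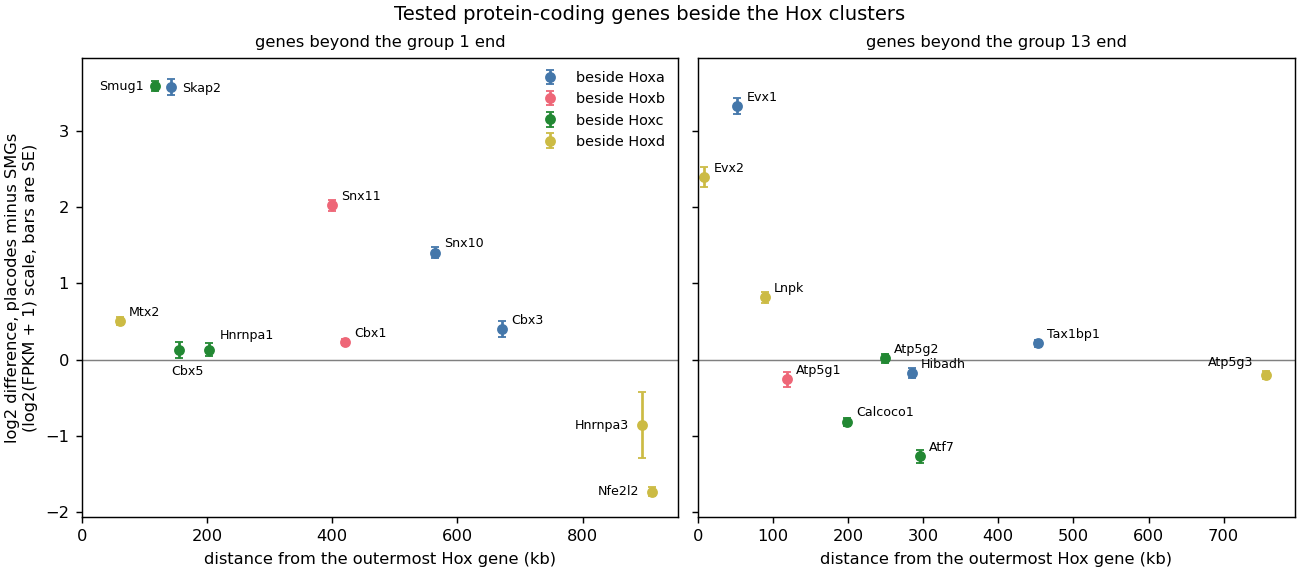
Difference between placodes and SMGs on the log2(FPKM + 1) scale (y axis, bars are SE) for the 21 tested genes beside the Hox clusters against their distance from the outermost Hox gene in kb (x axis), at the group 1 end (left) and the group 13 end (right), coloured by cluster. Smug1, Skap2, Evx1 and Evx2 lie near their clusters and highest, and Nfe2l2 lies far out and lowest.

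On the group 1 side, 7 of 11 tested genes were higher and 1 lower. Skap2, an adaptor gene 143 kb beyond the Hoxa cluster, had 41.7 and 40.2 FPKM against 2.90 and 2.20 (log2 difference 3.57, SE 0.11, adjusted p = 9.85e-07). Smug1, a uracil DNA glycosylase gene 116 kb beyond Hoxc4, had 84.9 and 85.4 against 5.86 and 6.52 (3.58, SE 0.06, adjusted p = 2.22e-07). In both genes the placode samples were far above the SMG samples without overlap. Of the sorting nexin genes, Snx11 beside Hoxb had 32.8 and 31.0 against 6.72 and 7.52 (2.02, adjusted p = 2.34e-06) and Snx10 beside Hoxa 13.6 and 13.7 against 4.61 and 4.52 (1.40, adjusted p = 1.00e-05). Mtx2, a mitochondrial import gene 60.7 kb beyond Hoxd1, had 24.7 and 26.0 against 17.7 and 17.4 (0.50, adjusted p = 0.000307). The heterochromatin protein genes Cbx1 and Cbx3 rose by 0.23 and 0.40 (adjusted p = 0.00365 and 0.0110), and Cbx3 lost its call when either placode sample was left out (adjusted p = 0.0853 without the first and 0.143 without the other). Nfe2l2, a regulator of antioxidant genes, was lower, at 10.2 and 10.7 against 36.8 and 37.4 (-1.73, adjusted p = 1.48e-06). Cbx5 (53.7 and 56.8 against 56.3 and 45.3) and Hnrnpa1 (598 and 569 against 492 and 577) did not pass (adjusted p = 0.294 and 0.228). Cbx5 was called higher without SMG sample 1 (0.28, adjusted p = 0.0218) and Hnrnpa1 without SMG sample 2 (0.25, adjusted p = 0.0465). Hnrnpa3 had 2.67 and 9.25 in the placodes against 10.3 and 10.0 (-0.86, adjusted p = 0.116), and without placode sample 2 its difference was -1.60 (adjusted p = 0.00265). Skap1, beside Hoxb1, was below the minimum for testing, with 1.68 and 1.25 against 0.177 and 0.174, without overlap.

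Of 46 annotated genes other than Hox genes inside the clusters, 3 were listed. All 3 are annotated as protein-coding. 5730596B20Rik, inside Hoxa, had 4.28 and 5.15 FPKM in the placodes and 0.0243 and 0.0332 in the SMGs (log2 difference 2.47, SE 0.12, adjusted p = 8.12e-06), and it shares exons with Hoxa3. Gm28230, which shares exons with Hoxd3 and Hoxd4, had 12.9 and 17.6 against 0 and 0.200 (3.87, SE 0.17, adjusted p = 4.81e-06). Gm28308, which shares exons with Hoxa2 and Hoxa3, had 11.8 in placode sample 1 and 0 in the other 3 samples, and did not pass the test (adjusted p = 0.160). Without placode sample 2 the call changed (adjusted p = 0.00144), so that 1 sample decides it. The strandedness of the libraries is not given in the sources used here, so reads of these genes and of the Hox genes they overlap cannot be told apart. 5730596B20Rik and Gm28230 passed the minimum only through their placode values. The Hox genes whose exons they share were selected on this contrast, so these calls carry no weight as evidence.

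Hox proteins bind DNA together with TALE homeodomain proteins of the Pbx, Meis and Pknox families. All 9 genes of this kind were abundant enough for the test, and 6 were higher in the placodes and 1 was lower, against the background of 35.7% and 40.4%. Pbx3 had 102 and 109 FPKM against 16.6 and 17.8, the largest rise of the list (log2 difference 2.55, SE 0.06, adjusted p = 4.70e-07). Pknox2 had 12.7 and 14.6 against 2.24 and 1.43 (2.38, SE 0.16, adjusted p = 2.49e-05), and Pbx4 had 7.44 and 7.81 against 1.73 and 0.951 (1.90, SE 0.17, adjusted p = 9.72e-05). In all 3 genes the groups did not overlap. Meis1, Meis3 and Meis2 were higher by 1.70, 1.65 and 0.72. Pbx2 and Pknox1 did not pass (adjusted p = 0.453 and 0.138). The Cdx genes, caudal regulators of trunk Hox genes, were all below 1 FPKM and were not tested: Cdx2 had 0.718 and 0.656 in the placodes and 0 in the SMGs, while Cdx1 and Cdx4 were at most 0.133 in any sample.

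Genes that act upstream of Hox genes, in RA metabolism and response and in hindbrain and trunk patterning, moved in both directions. Of 22 such genes, 16 were tested, 6 were higher in the placodes and 10 were lower, beside the background of 35.7% higher and 40.4% lower. Cyp26b1, which degrades RA, had 99.6 and 92.7 FPKM against 10.4 and 9.13 (log2 difference 3.17, SE 0.08, adjusted p = 4.99e-07). Gbx2, a gene of the anterior hindbrain, had 5.85 and 7.06 against 0 and 0.0735 (2.84, SE 0.13, adjusted p = 5.09e-06), and the RA receptor gene Rara had 39.3 and 39.6 against 21.1 and 22.4 (0.83, SE 0.05, adjusted p = 2.51e-05). These genes were higher in both placode samples than in either SMG sample. Gbx2 passed the minimum only through its placode values, so its call carries no weight as evidence. Among the genes that were lower, Aldh1a2, the main RA-synthesizing enzyme of the early embryo, had 3.61 and 2.88 against 60.8 and 68.5 (-3.95, SE 0.10, adjusted p = 6.71e-07), and Rdh10, which makes its substrate, had 6.14 and 5.69 against 35.7 and 37.3 (-2.44, SE 0.07, adjusted p = 7.70e-07). The receptor gene Rarg had 6.06 and 4.48 against 46.8 and 46.7 (-2.94, SE 0.12, adjusted p = 3.42e-06). Thus 1 RA-degrading enzyme was higher while 4 RA-producing enzymes tested, with Aldh1a1 and Aldh1a3, were lower, although Cyp26a1, which also degrades RA, was lower as well (1.21 and 1.21 against 3.59 and 4.39, log2 difference -1.17, adjusted p = 0.000188). Aldh1a1, Aldh1a3 and Rxrg, all among the 10 lower, passed the minimum only through their SMG values, so their calls carry no weight as evidence. Egr2, Fgf4, Fgf8, Wnt3a and Cyp26c1 were below the minimum.

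**Figure D5:**
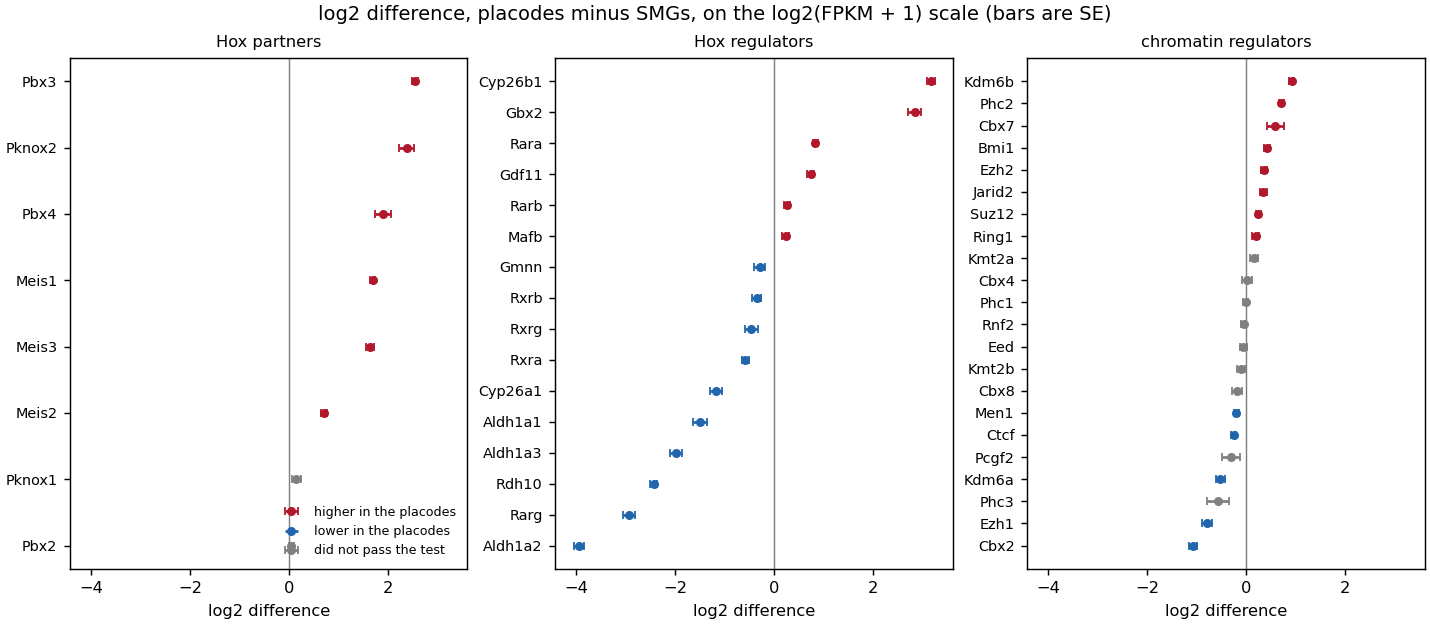
Difference between placodes and SMGs on the log2(FPKM + 1) scale (x axis, bars are SE) for the tested genes reported here of 3 lists: Hox partners, Hox regulators and chromatin regulators; red is higher and blue lower in the placodes at an adjusted p below 0.05, grey did not pass. Partners lie mostly to the right, regulators on both sides, and chromatin regulators close to 0.

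Polycomb and Trithorax proteins keep Hox genes off or on, demethylases of H3K27 counter Polycomb, and the insulator protein Ctcf divides the clusters into domains. Of 22 such genes, all were tested, 8 were higher, 5 lower and 9 did not pass. The share called higher was near the background of 35.7%, beside 40.4% called lower, and only Cbx2 differed by more than 2-fold. The H3K27 demethylase gene Kdm6b had 46.1 and 43.7 FPKM against 23.0 and 23.5 (log2 difference 0.92, SE 0.05, adjusted p = 1.45e-05), and its relative Kdm6a had 11.6 and 9.81 against 16.3 and 15.1 (-0.52, SE 0.09, adjusted p = 0.00250). The Polycomb genes Phc2 (109 and 105 against 67.2 and 62.0) and Cbx7 (2.72 and 2.12 against 1.57 and 0.980) were higher by 0.72 and 0.59 (adjusted p = 6.02e-05 and 0.0170). Without placode sample 1, without placode sample 2 or without SMG sample 2, Cbx7 was no longer called (adjusted p = 0.140, 0.0599 and 0.0899). Cbx2, a Polycomb subunit that compacts chromatin, had 10.4 and 11.8 against 25.5 and 23.6 (-1.08, SE 0.08, adjusted p = 4.85e-05), and the methyltransferase gene Ezh1 had 3.50 and 3.19 against 6.35 and 6.65 (-0.79, adjusted p = 0.000364). Ezh2 was higher by 0.36 (adjusted p = 0.00169) and Ctcf was lower by 0.25 (log2 difference -0.25, adjusted p = 0.00432).

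Markers of the cell types that the samples could hold differed between the groups in both directions, depending on the list. Their part in the result was not tested. The list for hindbrain and spinal cord had 12 of 14 markers detected in the placodes and 3 in the SMGs, with a summed FPKM of 317 and 322 against 48.1 and 46.1, and Lhx3, Mnx1, Nkx2-2, Nkx6-1 and Olig2 were at 0 in both SMG samples. In the placodes, Mnx1 (0.876 and 0.718) and Nkx2-2 (0.185 and 0.139) were not detected. Olig2 had 1.13 and 1.96 there, Lhx3 1.61 and 1.80, and Nkx6-1 2.95 and 3.84. Of the 10 tested, 9 were higher in the placodes and 1 was lower, beside the background of 35.7% higher and 40.4% lower. Pax6, Pax3, Dbx1, Nkx6-1 and Sox1 passed the minimum only through their placode values, so their calls carry no weight as evidence. Of 8 neuronal markers, 8 were detected in each group, with sums of 1153 and 1181 against 112 and 100.2. Paraxial mesoderm, which also expresses Hox genes in the embryo, had 4 of 8 markers detected in the placodes and 5 in the SMGs. Its sums were 48.9 and 48.8 against 38.4 and 31.5, but its members went opposite ways. Of 5 tested, 1 was higher in the placodes and 2 were lower. Uncx had 32.3 and 33.2 FPKM in the placodes, most of the sum there, against 0 in both SMG samples. Meox1 (0.283 and 0.276 against 15.4 and 12.96) and Tbx18 (0.0222 and 0.0839 against 2.25 and 2.49) were lower. Uncx passed the minimum only through its placode values, Meox1 and Tbx18 only through their SMG values, so these calls carry no weight as evidence. None of 6 tail bud markers was detected in either group. Of 12 salivary epithelium markers, 7 were detected in the placodes and 12 in the SMGs (117 and 125 against 663 and 628), and the keratin genes Krt5, Krt14 and Krt15 were at 0 in both placode samples. All 12 were tested, 8 were lower in the placodes, and Sox9 (42.1 and 43.0 against 9.31 and 7.66, adjusted p = 3.66e-06) and Krt19 (14.7 and 15.8 against 9.78 and 6.53, adjusted p = 0.00363) were higher, while the other 2 did not pass. Over all tested features, 35.7% were called higher and 40.4% lower. Among the 8 lower, Pitx1 had 0.539 and 0.429 FPKM against 245 and 253. Pitx1, Trp63, Krt5, Krt14 and Krt15 passed the minimum only through their SMG values, so their calls carry no weight as evidence. Cdh1 (1.11 and 1.18 against 28.2 and 24.7) and Epcam (1.75 and 2.69 against 87.2 and 78.8) were detected in the placodes but lower. Detection in the placodes thus covered part of this list, and most of the list was lower there than in the SMGs. Mesenchyme markers were detected in 8 and 9 of 9 cases, with sums of 212 and 208 against 2152 and 2099. Erythroid and endothelial markers were found in the SMGs (5 and 6 of 6 detected), whereas 0 and 1 were detected in the placodes. Of 5 pluripotency markers, Esrrb was detected in the placodes (19.95 and 19.56 against 0.0630 and 0.0628, adjusted p = 3.69e-07) and 0 in the SMGs, and the list's sums were 20.7 and 20.2 against 0.211 and 0.314. Esrrb passed the minimum only through its placode values, so its call carries no weight as evidence.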

How the data were processed

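RNA-seq data were analysed, with 2 placode samples (day 10) and 2 SMG samples (E12.5), assigned by their labels. The authors prepared libraries with a NEBNext kit, sequenced paired-end reads, used HISAT2 for mapping and deposited 1 FPKM value per gene and sample. The submitters' processing notes name GRCm38 and GRCh38. The version of HISAT2, the annotation, the program for FPKM and the strandedness are not given in the sources used here. The depth is unknown, so no counting intervals are given.

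The test was run on log2(FPKM + 1) for the 13193 features whose mean FPKM over the 4 samples was at least 1, with limma 3.58.1 (lmFit and eBayes with a trend) in R 4.3.3. The model held group alone and was two-sided, with Benjamini-Hochberg adjustment over all of them and a threshold of 0.05. With 2 samples in each group, the smallest p of an exact permutation test is 0.333. The procedure was tested on simulated data. Coordinates and shared exons are from GENCODE M21 (GRCm38), in which 39 of 40 Hox features were found, and promoters and miRNAs are from RefSeq (GRCm38.p6). Figures were drawn with Python 3.11.15 and matplotlib 3.10.9.

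The members and the lists were chosen with earlier results of these data known. Any member could be named, and of the lists the 3 called genes at either extreme of the log2 difference, and every gene beside or inside the clusters. Meis1, Meis2, Meis3, Pbx2, Pknox1, Aldh1a1, Aldh1a3, Cyp26a1, Ezh2, Ctcf, Sox9, Krt19, Esrrb and the genes below the minimum were named after their values were seen. The same holds for Rxrg and for the cell type markers named, among them Uncx, Meox1, Tbx18, Pitx1, Cdh1 and Epcam. Alternatives changed 1 choice at a time: the pseudocount, the minimum, the scaling, the trend, the replicate block, the detection level, shared exons and each sample left out. Protein sequences were not analysed here, and some genes that enter the counts are not reported here by name.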

Additional observations from a re-analysis of the deposited data

How the results depend on the processing

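No called gene and no count or share changed direction under an alternative. Of the genes that did not pass the test, Atp5g2 (log2 difference 0.01) was at -0.0203 with quantile normalization and ranged from -0.0369 to 0.0634 with 1 sample left out, below 0 without placode sample 1 or SMG sample 1. Cbx5 (0.13) ranged from -0.0276 without SMG sample 2 to 0.28 without SMG sample 1. Counts of tested genes called higher or lower stayed within 1.5 times, except that regulators called lower fell from 10 to 6 at a mean FPKM of at least 5, genes beside the clusters called lower from 5 to 3 with samples rescaled to an equal sum (TPM), features inside the clusters called higher from 2 to 1 at a mean of at least 5, and, with 1 sample left out, chromatin regulators called higher ranged from 5 to 7 instead of 8 and genes beside the clusters called lower from 3 to 6. For both, the lowest count was without placode sample 1. The median log2 difference of the tested Hox features, 5.43, is a description of members chosen for this difference. It was 7.73 and 9.89 at pseudocounts of 0.1 and 0.001, 3.78 without a minimum, 5.85 at a mean of at least 5, 5.47 under TPM and median-ratio scaling, and 5.40 to 5.46 with 1 sample left out. Detected Hox features numbered 12 instead of 23 in the placodes when only members without shared exons were counted, because fewer features enter. The higher Hoxd4 feature, which has no coordinates, was also left out of this count and of the cluster shares without shared exons. In the SMGs, 8 were detected at 0.1 FPKM and 0 at 5 FPKM, at 10 FPKM and without shared exons. Cluster shares without shared exons were 18.1% for Hoxa, 71.6% for Hoxb, 9.58% for Hoxc and 0.660% for Hoxd, and as means per listed feature 17.8%, 64.3% and 10.2% for Hoxa, Hoxb and Hoxc. The replicate numbers did not pair the samples (Pearson r of deviations -0.0348 over 13193 features), and with the replicate block 22 Hox features, 11 genes beside the clusters and 6 partners were called higher, as without it, while genes beside the clusters called lower were 7 instead of 5, by Atp5g1 (adjusted p = 0.0378) and Hnrnpa3 (adjusted p = 0.0358). Atp5g1 was also called with quantile normalization (adjusted p = 0.0260). No scaling moved the median of all genes by over 0.1. Levels near 0 cannot be ranked, since the depth is unknown, and a batch that follows the groups cannot be told apart from them.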
